A study of Mus musculus with 3 samples.

Results

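The peaks described here are the strongest sites of PU.1 in one of the libraries of a ChIP-seq study of pro-B cells, namely the PU.1_3 peaks whose score in the deposited list is 400 or more. They number 614 of the 6169 peaks of that library (9.95%), and were selected by the score itself, so their scores and widths in that library are given as a description with no test. Both PU.1 libraries, named PU.1_2 and PU.1_3 after their titles, came from i660BM cells, a C57BL/6 mouse pro-B line with a PU.1 construct induced by doxycycline (70 ng/ml for 24 h) and grown with IL-7, and were made with a rabbit polyclonal antibody to PU.1. Both are induced, 1 line stands for the pro-B stage, and peak lists carry no expression values with which to check the cell type. An input sample, with no antibody and no treatment by its label, completes the series, and neither it nor uninduced cells were analysed here. Nothing in the labels says that the PU.1 libraries came from separate cultures, so agreement between them may be technical.

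PU.1, the product of Spi1, is an ETS-family transcription factor. It binds DNA through a purine-rich site around the core GGAA, with GAGGAAGT as a typical form. In haematopoiesis it acts in myeloid cells and in B cell precursors, and at many of its sites it lies far from gene starts, in enhancers. Each peak carries a score from the authors' peak caller, taken to be the log10 p-value times minus 10, so that a larger score marks a peak less likely under the caller's background model. Scores depend on the depth of each library and are compared only within a library. All positions are 1-based on GRCm38 (mm10).

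Promoter sequences are shown first, chosen to show where a PU.1-type site lies within a peak. Sequence was read only in promoter windows, so the peaks outside them were not searched. Of the 614 peaks, 36 overlapped a RefSeq promoter window, which runs from 250 bases before a listed gene start to 50 after it. The windows below are the 6 with the highest PU.1_3 scores among windows of protein-coding genes that hold GAGGAAGT inside the peak, each window being the one whose start lies nearest the peak midpoint. Sequences are RefSeq, GRCm38.p6, written 5′ to 3′ on the strand of the gene, and capitals mark GAGGAAGT or its reverse complement ACTTCCTC. In the Cd68 window, shown because it holds no such match, capitals mark each GGAA or its reverse complement TTCC.

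Cd53, chr3:106790100-106790399, minus strand: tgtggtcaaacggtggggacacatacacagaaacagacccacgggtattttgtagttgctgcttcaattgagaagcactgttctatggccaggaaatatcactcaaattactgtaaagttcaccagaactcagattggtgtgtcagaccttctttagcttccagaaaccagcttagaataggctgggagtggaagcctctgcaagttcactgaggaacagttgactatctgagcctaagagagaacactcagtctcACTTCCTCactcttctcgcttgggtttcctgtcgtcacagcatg

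Noc2l, chr4:156235765-156236064, plus strand: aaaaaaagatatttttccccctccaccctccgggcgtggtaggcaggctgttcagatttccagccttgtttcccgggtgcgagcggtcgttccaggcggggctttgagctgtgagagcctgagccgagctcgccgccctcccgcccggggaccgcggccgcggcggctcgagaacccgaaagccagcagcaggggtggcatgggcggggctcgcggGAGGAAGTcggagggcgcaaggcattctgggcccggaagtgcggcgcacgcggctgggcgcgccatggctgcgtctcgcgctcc

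Pik3cg, chr12:32208610-32208909, minus strand: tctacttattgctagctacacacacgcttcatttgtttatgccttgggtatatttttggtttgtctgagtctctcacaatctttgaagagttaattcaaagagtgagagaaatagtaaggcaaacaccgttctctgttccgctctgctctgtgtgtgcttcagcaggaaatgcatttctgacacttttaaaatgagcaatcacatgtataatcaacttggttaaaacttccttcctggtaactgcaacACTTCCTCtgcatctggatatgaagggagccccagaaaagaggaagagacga

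Traf3ip3, chr1:193201497-193201796, minus strand: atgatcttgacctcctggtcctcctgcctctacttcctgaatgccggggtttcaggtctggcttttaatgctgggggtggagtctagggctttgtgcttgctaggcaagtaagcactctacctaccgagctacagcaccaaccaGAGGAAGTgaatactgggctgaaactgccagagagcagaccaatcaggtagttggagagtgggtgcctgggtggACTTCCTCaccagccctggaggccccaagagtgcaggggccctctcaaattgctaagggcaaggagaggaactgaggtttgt

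Samsn1, chr16:75909217-75909516, minus strand: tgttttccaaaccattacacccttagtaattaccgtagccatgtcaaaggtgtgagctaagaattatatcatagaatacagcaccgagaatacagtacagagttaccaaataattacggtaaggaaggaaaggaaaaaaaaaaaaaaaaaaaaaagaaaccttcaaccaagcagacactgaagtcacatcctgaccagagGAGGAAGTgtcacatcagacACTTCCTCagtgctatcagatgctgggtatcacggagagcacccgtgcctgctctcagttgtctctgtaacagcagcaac

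Capn10, chr1:92934158-92934457, plus strand: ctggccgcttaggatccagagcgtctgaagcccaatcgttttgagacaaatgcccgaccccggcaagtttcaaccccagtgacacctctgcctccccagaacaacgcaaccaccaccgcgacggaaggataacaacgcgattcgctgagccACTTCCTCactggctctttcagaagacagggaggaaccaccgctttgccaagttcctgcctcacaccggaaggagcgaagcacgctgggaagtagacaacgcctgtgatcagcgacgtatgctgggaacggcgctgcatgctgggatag

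Cd68, chr11:69666121-69666420, minus strand: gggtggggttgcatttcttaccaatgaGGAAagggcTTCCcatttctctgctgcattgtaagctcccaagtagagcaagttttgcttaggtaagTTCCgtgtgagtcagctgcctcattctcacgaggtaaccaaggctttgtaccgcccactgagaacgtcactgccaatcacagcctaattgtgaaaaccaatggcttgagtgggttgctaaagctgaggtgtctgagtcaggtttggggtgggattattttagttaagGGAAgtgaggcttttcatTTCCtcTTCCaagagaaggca

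At Cd53, a tetraspanin gene of leukocytes, the peak (chromosome 3, 106789595 to 106790684) scored 1163 and its midpoint lay 10 bp from the gene start. The centre of the only GAGGAAGT match in that window was 0.5 bp from the peak midpoint. At Pik3cg, which encodes the catalytic subunit p110-gamma of a phosphoinositide 3-kinase of leukocytes, the peak (chromosome 12, 32208086 to 32209239) scored 782 and the match lay 4.5 bp from its midpoint. The first base of the match is at position 7 downstream of the Cd53 start, the start being position 1, and 2 bases before the Pik3cg start. Samsn1, an adaptor gene of haematopoietic cells, and Traf3ip3, which encodes a TRAF3-interacting protein of lymphocytes, each hold 2 matches, on opposite strands. The nearer match lay 11.5 bp from the midpoint of the Samsn1 peak, scored 607, and 19.5 bp from the midpoint of the Traf3ip3 peak, scored 613.

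Capn10, a calpain gene, had its match 40.5 bp from the peak midpoint (score 556). Noc2l, which encodes a nucleolar protein, is the exception among the 6, with the match 478.5 bp from the midpoint of a peak 1940 bp wide. At Cd68, the gene of a lysosomal glycoprotein of macrophages, the midpoint was 10 bp from the listed start and the window held 6 copies of the core without the longer site. A further match in the nearest window of Cd37, another leukocyte tetraspanin gene, lay outside the PU.1_3 peak (chromosome 7, 45238896 to 45239840).

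Among protein-coding genes, 29 had a promoter window overlapped by one of the strongest peaks, and 14 of them (48.3%) held GAGGAAGT on either strand in such a window. The same count was 103 of 480 genes (21.5%) for windows overlapped by PU.1_3 peaks scored under 400 and by none of the strongest. PU.1_2 peaks could overlap those windows too. For windows overlapped by a PU.1_2 peak alone the count was 224 of 5923 (3.78%), and for windows without a peak 299 of 11693 (2.56%). Over all windows of protein-coding genes it was 636 of 17491 genes (3.64%). The shorter core GGAA lies inside GAGGAAGT and was present in 36 of 36 windows under the strongest peaks and in 95.7% of all windows of protein-coding genes, so it does not separate them. Genes with several listed starts contribute several windows, and Bola2 and Slx1b face each other over 1 peak and share 1 match. A match is a string of letters in a window and not evidence of binding at that base.

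In 12 genes the match of the nearest window lay inside the peak, the match shared by Bola2 and Slx1b being counted for each gene. Its centre was at a median of 35 bp from the PU.1_3 midpoint, and within 100 bp in 10 of the 12. For PU.1_3 peaks scored under 400 the median was 27.5 bp over 101 genes, with 89 within 100 bp. The match was thus found in a larger share of windows under the strongest peaks, and its median distance from the midpoint was not smaller. Measured from the midpoint of the matching PU.1_2 peak, the median distance over the same 12 genes was 209.5 bp, with 3 within 100 bp.

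**Figure D1:**
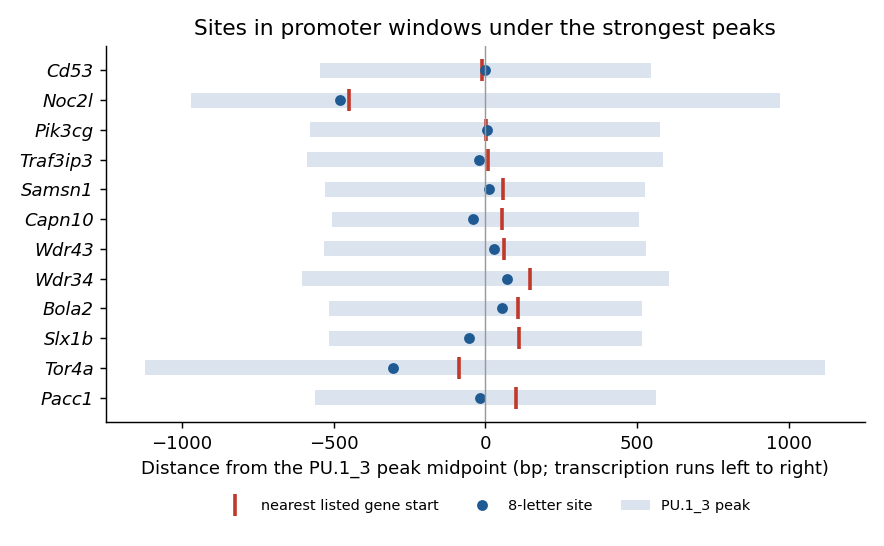
GAGGAAGT matches inside the strongest PU.1_3 peaks for 12 protein-coding genes, in order of PU.1_3 score from the top. Bars span the peak, red ticks mark the nearest listed gene start and points the match, all in bp from the peak midpoint along the direction of transcription. Points lie within 100 bp of the midpoint except at Noc2l and Tor4a.

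The scores of the 614 peaks ran from 400.04 to 3100, with a median of 561 and quartiles of 455 and 785. They thin out quickly, with 385 at 500 or more, 197 at 700 or more, 97 at 1000 or more and 28 at 2000 or more. A plateau of 11 peaks stood at exactly 3100, the highest value of the list, where no order among them can be read. Around the threshold the values are continuous. Just inside it were peaks nearest to Trim52 (400.04), Adam34l (400.07) and Commd10 (400.11), and just outside were peaks nearest to Ubxn11 (399.88), Gimap6 (399.27) and Lrfn3 (398.97). All 6 matched a PU.1_2 peak scored 3100.

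**Figure D2:**
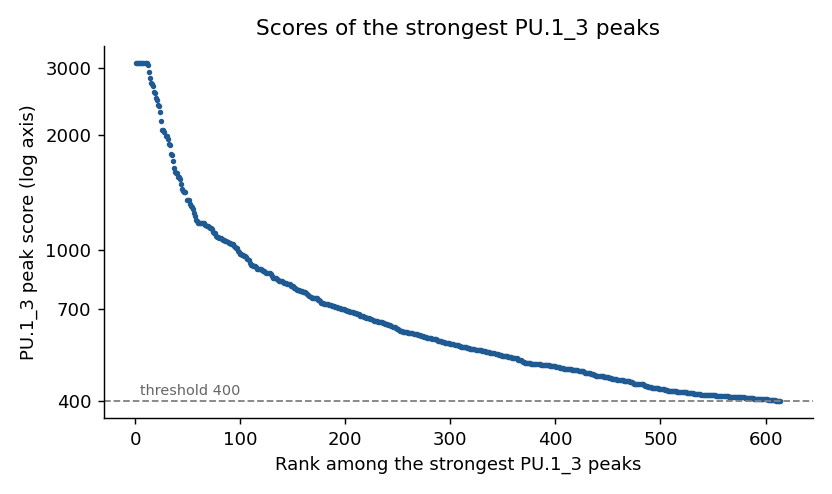
PU.1_3 score (log axis) of each of the 614 strongest peaks against its rank. The curve starts with 11 peaks at 3100, passes 1000 after 97 peaks and ends at the threshold of 400, marked by the dashed line.

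PU.1_2, whose scores the selection did not use, gave almost every one of these sites the score 3100, a value that 2431 of its 74494 peaks share. Each of the 614 peaks overlapped a PU.1_2 peak, as did each of the 5555 PU.1_3 peaks under 400. No PU.1_2 peak was matched by 2 of the 614 when the higher scored match was taken. Of the 614 matches, 612 scored exactly 3100 (99.7%, exact binomial 95% interval 98.8 to 99.96). Over all PU.1_3 peaks the share at exactly 3100 was 39.0%, and over those scored under 400 it was 1795 of 5555 (32.3%, 31.1 to 33.6). The intervals cover counting error only, and peaks of a library are not replicates.

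Both exceptions were close to that value. The peak nearest to Lrfn5, a neuronal adhesion gene, scored 502 in PU.1_3 and 3030 in PU.1_2. It lies on chromosome 12, 61993983 to 61994959, 136 kb beyond the gene. A peak inside LOC108168726 scored 431 in PU.1_3 and 3223 in PU.1_2. Scores above 3100 were otherwise found at the matches of 206 PU.1_3 peaks under 400, so 3100 is a plateau and not the highest PU.1_2 score. Whether it is a limit of the caller's scale is not stated by any source used here, and peaks that share this score may differ in strength.

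The share at exactly 3100 climbed with the PU.1_3 score. It was 5.52% among the 1830 peaks under 100, 26.9% from 100 to 200, 75.2% from 200 to 300, 96.5% from 300 to 400 and 99.6% from 400 to 500. From 700 upward it was 100% of 197 peaks. Within the strongest peaks PU.1_2 scores thus gave almost no spread with which to rank them. Read the other way, 612 of the 2431 PU.1_2 peaks at exactly 3100 matched a peak of this set, and 1759 matched a PU.1_3 peak scored under 400.

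**Figure D3:**
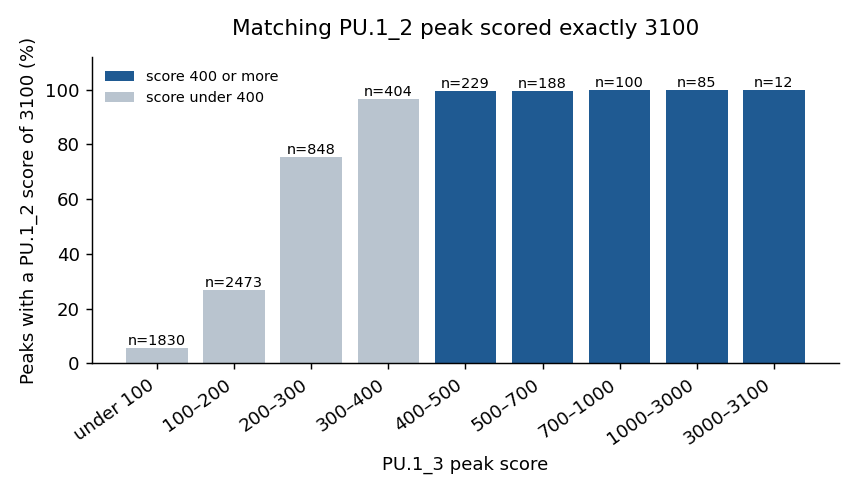
Share of PU.1_3 peaks whose PU.1_2 match scored exactly 3100, in bins of PU.1_3 score, with the number of peaks above each bar. Dark bars are the strongest peaks, at 99.5% or more in each bin, and pale bars the peaks under 400, from 5.52% to 96.5%.

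The peaks were of rather even width. In PU.1_3 they had a median of 1100 bp with quartiles of 1047.5 and 1184 bp, against a median of 968 bp for the peaks under 400. The matching PU.1_2 peaks were wider, with a median of 1375 bp, against 1225 bp for the matches of the peaks under 400. In 591 of 614 cases the PU.1_2 peak was the wider of the pair (96.3%, 94.4 to 97.6), against 97.9% (97.4 to 98.2) of the peaks under 400. In 520 cases the PU.1_2 peak held the whole PU.1_3 peak (84.7%, 81.6 to 87.4), against 88.8% (88.0 to 89.6) of the peaks under 400. Midpoints of the pair were a median of 51.0 bp apart, against 55.0 bp for the peaks under 400. An overlap covering 50% or more of each partner was found for 570 of 614 (92.8%, 90.5 to 94.7), against 4912 of 5555 (88.4%, 87.6 to 89.3).

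Only 9 of the 614 were over 2000 bp wide. The widest lay on chromosome X, 135047166 to 135056231, 9066 bp long and inside a PU.1_2 peak of 16601 bp, 38.0 kb from Zmat1, a zinc-finger gene. The next were 3300 bp wide (chromosome 14, 95007649 to 95010948, nearest to Spertl at 870 kb) and 2423 bp wide at a start of Dennd4b, the gene of an activator of a Rab GTPase. The narrowest were nearest to Adgrl3, a latrophilin gene (776 bp), Hand1, a heart development factor (821 bp), and LOC108167694 (828 bp). A merged interval of the deposited combined list held 613 of the 614 completely, the exception being the peak at H2-Q7. Of the peaks under 400, 5554 of 5555 were held in the same way.

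Most of the strongest peaks lay away from gene starts. Midpoints within 1 kb of the start of a protein-coding gene were found for 40 of 614 (6.51%, 4.69 to 8.77), where all PU.1_3 peaks gave 10.7% and those under 400 gave 619 of 5555 (11.1%, 10.3 to 12). Intergenic sequence held 276 (45.0%, 41.0 to 49.0), against 39.6% (38.3 to 40.9) of the peaks under 400. Bodies of protein-coding genes held 243 (39.6%, 35.7 to 43.6), against 40.2%, and bodies of other genes 55 (8.96%, 6.82 to 11.5), against 9.05%. The intervals do not meet for gene starts, and for intergenic sequence they miss each other narrowly, with 40.97% as the lower bound for the strongest peaks and 40.92% as the upper bound for the others.

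A similar comparison was made with PU.1_2 peaks that share the score 3100. These were placed by their PU.1_2 midpoints, whereas the strongest peaks were placed by their PU.1_3 midpoints. Of the 1819 PU.1_2 peaks at exactly 3100 that matched none of these peaks, 262 lay at a gene start (14.4%, 12.8 to 16.1) and 664 in intergenic sequence (36.5%, 34.3 to 38.8). Along the PU.1_3 score, the share at gene starts was 12.7% under 100, 11.6% from 100 to 200, 8.49% from 200 to 300, 6.44% from 300 to 400, 6.11% from 400 to 500, 7.98% from 500 to 700, 8.00% from 700 to 1000 and 3.53% from 1000 to 3000, the last being 3 of 85 peaks. None of the 12 peaks of 3000 or more was at a gene start. Most of the fall at gene starts thus occurred below the threshold of 400. The intergenic share did not rise steadily with the score. It was 38.3% under 100, 40.0% from 100 to 200, 41.6% from 200 to 300 and 39.4% from 300 to 400. From 400 to 500 it was 45.0%, from 500 to 700 45.2%, from 700 to 1000 39.0% and from 1000 to 3000 50.6%. For the 12 peaks of 3000 or more it was 50.0%.

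**Figure D4:**
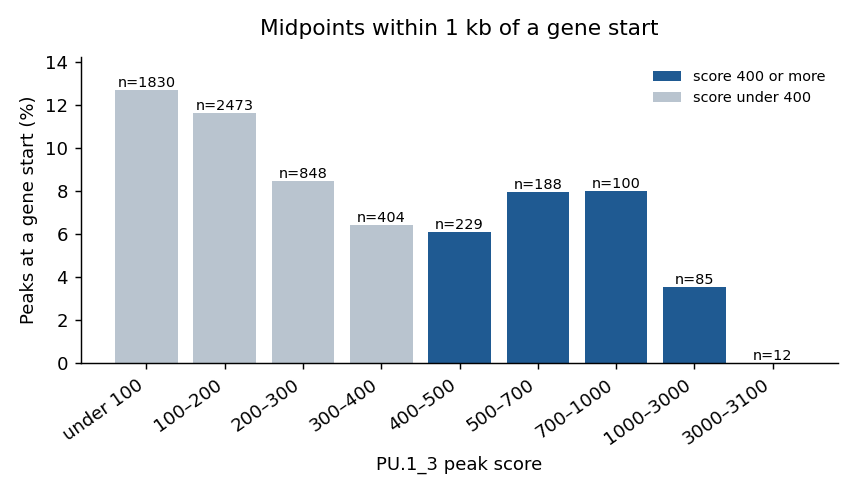
Share of PU.1_3 peaks with a midpoint within 1 kb of the start of a protein-coding gene, in bins of PU.1_3 score, with the number of peaks above each bar. Dark bars, the strongest peaks, reach at most 8.00%, and the bins under 200 stand above 11%.

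A protein-coding gene span was overlapped by 285 of the 614 (46.4%, 42.4 to 50.5), against 51.0% (49.6 to 52.3) of the peaks under 400. A span within 5 kb was found for 339 (55.2%), against 60.0%, and within 100 kb for 554 (90.2%), against 88.5%. Midpoints were a median of 25.4 kb from the nearest start, against 21.3 kb. Of the peaks outside genes whose nearest gene has a listed strand, 167 lay upstream and 98 downstream (27.2% and 16.0% of the 614), against 1241 and 873 of the peaks under 400 (22.3% and 15.7% of the 5555). The most remote lay 1585 kb from the span of Tenm2, a teneurin gene (chromosome 11, 38821723 to 38822763, score 457).

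Besides the genes above, those with one of the 40 peaks at gene starts include Sh2b3 (787), which encodes the cytokine-signalling adaptor Lnk, H2-Q7 (772), a non-classical MHC class I gene, and Dock10 (647). Actr2 (650) and Arpc2 (555) encode subunits of the actin-nucleating Arp2/3 complex, and Cyrib (875) a Rac1-binding protein. Ywhag (745) and Ywhab (505) encode 14-3-3 proteins. Slc15a3 (541) encodes a lysosomal transporter. Cebpd, a C/EBP factor gene, had a peak 0.589 kb from an end of its span, inside the neighbouring Spidr (408). Icam1, an adhesion receptor gene of leukocytes and endothelium, had one centred 0.629 kb from a start (405), where the PU.1_2 peak was 4084 bp wide. Each value in this paragraph is a PU.1_3 score, and each match in PU.1_2 scored 3100.

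The highest score at a gene start, 1230, belonged to a peak 0.243 kb from an end of Slc16a6, a monocarboxylate transporter gene, inside Arsg. Other starts with peaks were those of 9930111J21Rik2 (970) and 9930111J21Rik1 (888), related genes whose peaks may share reads, Cyp4f18 (745), Cd37 (638), P3h2 (627), Tor1aip2 (596), Ap1s3 (593), Dennd4b (542), Slc25a25 (531), Synj1 (518), Wdr43 (497), Wdr34 (497), Kif3b (485), Zfp385a (479), Gm52008 (437), Bola2 (429), Tor4a (424), Pacc1 (422), Zfp90 (420), Abraxas2 (412) and Gpatch2l (406). A start is listed for the genes of 33 of the 40, and for the other 7 either end of the span was used.

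At gene starts the partners in PU.1_2 were broader and less well centred. Their median width was 2064 bp for the 40 strongest peaks, and 1377.5 bp for the 276 intergenic ones. Midpoints were more than 200 bp apart in 19 of the 40 (47.5%), and in 42 of the 276 (15.2%). Among the peaks under 400 these shares were 32.3% at gene starts and 17.9% in intergenic sequence.

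The share of the strongest peaks on a chromosome was set beside that of the peaks under 400. Chromosome 10 carried 62 of 614 (10.1%, 7.83 to 12.8), against 7.11% (6.45 to 7.82) of the peaks under 400. It had the highest share of any chromosome, and the intervals make no allowance for picking it out. They miss each other only narrowly. It also carried 41 of the 404 peaks from 300 to 400 (10.1%, 7.38 to 13.5), so the higher share was also present just below the threshold. Of the PU.1_2 peaks at exactly 3100 it carried 192 of 2431 (7.9%, 6.86 to 9.04), whose interval overlaps that of the strongest peaks. Chromosome 2 carried 60 (9.77%, 7.54 to 12.4), against 7.6% (6.91 to 8.33), and the intervals overlap. Chromosome X carried 4 (0.651%, 0.178 to 1.66), against 1.4% (1.11 to 1.75) of the peaks under 400, with overlapping intervals, and 3.57% of all PU.1_2 peaks. Among PU.1_2 peaks at exactly 3100 the share on X was 21 of 2431 (0.864%, 0.536 to 1.32), whose interval overlaps that of the strongest peaks. These 4 lay near Zcchc13 (1774) and Zmat1 (722) and inside Reps2 (502) and Dmd (449). No strongest peak was on chromosome Y, which an exact interval allows to be up to 0.599%. Of all PU.1_3 peaks on a chromosome, the share at 400 or more ran among the autosomes from 6.72% on chromosome 4 to 13.6% on chromosome 10. The copy number of chromosomes in the line was not measured here.

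**Figure D5:**
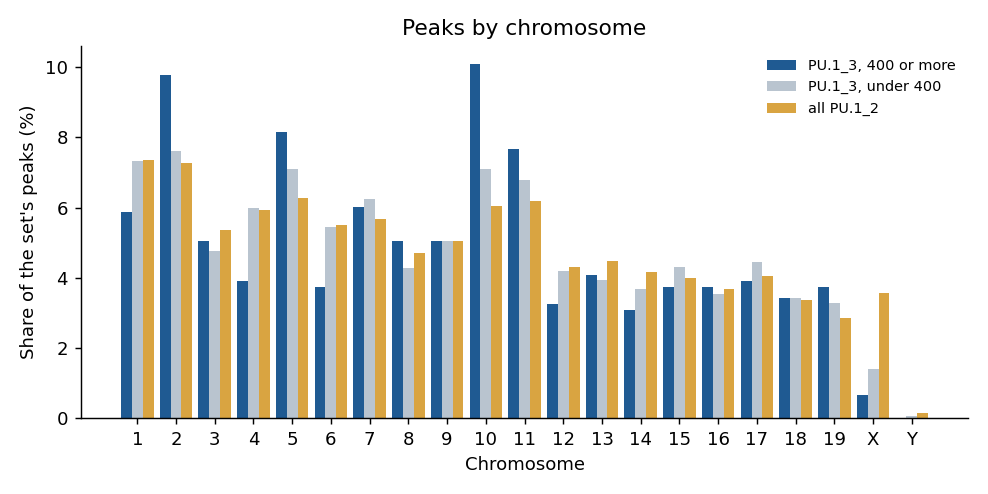
Share of peaks on each chromosome for the strongest PU.1_3 peaks (dark blue), the PU.1_3 peaks under 400 (grey) and all PU.1_2 peaks (ochre). Chromosome 10 holds 10.1% of the strongest peaks and chromosome X 0.651%.

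The 25 highest scores, all of 2174 or more, lay beside 25 different genes. None was at a gene start. The midpoints lay from 4.39 kb to 695 kb from the nearest start, with a median of 54.1 kb. By location, 10 were inside protein-coding genes, 3 inside other genes and 12 intergenic. Their widths ran from 1170 to 2375 bp. In 18 of the 25 the PU.1_2 midpoint was within 100 bp. Among all 614 this held for 427 (69.5%), and among the peaks under 400 for 67.7%.

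Bcl11a, a zinc-finger factor gene required for B cell development, is the 1 gene of the 25 that is on the gene lists used below. Its peak at 3100 lay 0.461 kb beyond the 3′ end (chromosome 11, 24174019 to 24176248), and a second peak of 955 lay 11 kb beyond that end. The other 10 peaks at 3100 included sites inside Pms1, a mismatch repair gene (chromosome 1, 53264298 to 53265852), inside Epg5, an autophagy gene, inside Cecr2, a chromatin remodelling gene, inside the keratin gene Krt9 and inside Tafa2. One overlapped an end of Wdr12. Upstream of Esr1, the oestrogen receptor gene, a peak of 1981 bp lay at 9.34 kb. Peaks at 3100 further lay 58.9 kb downstream of Macroh2a1, a histone variant gene, 17.7 kb downstream of Unc5cl and 233 kb downstream of Gbe1, a glycogen branching enzyme gene.

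Next in rank were peaks inside Smyd3, a methyltransferase gene (3057), 695 kb from Galr1 (2935), inside Pla2g4d (2832) and Atp10b (2740), and near Mdga1 (2720). A peak inside Il20ra, a cytokine receptor gene, scored 2702. The list continued with Cep295 (2597), Vsnl1 (2584), Oxsm (2506), Atp1b3 (2479), Fat4 (2399), Errfi1, an inhibitor of EGF receptor signalling (2381), Slc22a28 (2309) and Cnpy1 (2174). For 4 of the 25 the nearest gene span was more than 100 kb away, so the name is a landmark only.

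Peaks close to each other were few. With 50 kb as the limit, 33 of the 614 fell into 16 groups, 15 of 2 and 1 of 3, and the 614 peaks had 583 different nearest genes. A pair lay 26.8 kb and 30.8 kb beyond Fli1, an ETS factor gene of blood and vessel development. These peaks, at 1485 and 1179, are on chromosome 9, 32570244 to 32571361 and 32574219 to 32575299. Arhgap18 held a pair in its body (1071 and 1157).

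The group of 3 covered 32.6 kb beside Idh2, an isocitrate dehydrogenase gene (646), and the semaphorin gene Sema4b (502 and 496). Pairs also lay beside Jun, an AP-1 subunit gene (1022 and 566, at 53.4 and 99.9 kb upstream), beside Pltp and Pcif1 (1594 and 570), in and beside Nr1h4, a bile acid receptor gene (1085 and 502), and inside Gna15, a G protein gene of haematopoietic cells (570 and 493). The remaining pairs were Ica1l with Wdr12, Cand1, Bcl11a, Slfn8, Tent2, LOC108168726, Fam217b with Cdh26, Foxo1 and Plekho2. Members of a group share a locus and are not independent.

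Over all 21896 protein-coding genes, 367 had one of the strongest peaks within 5 kb of their span (1.68%). Among genes of B cell receptor signalling it was 5 of 30 (16.7%), among B-lineage transcription factors 4 of 29 (13.8%), among myeloid genes 2 of 36 (5.56%), and among genes of TLR and NF-kB signalling 1 of 28 (3.57%). Among MHC class II presentation genes it was 0 of 14, among erythroid and iron genes 1 of 19 (5.26%), among housekeeping genes 1 of 20 (5.00%) and among neuron genes 0 of 20. The count for the B cell receptor list rests on scores near the threshold, since with a threshold of 500 it was 1 of 30, and that of the transcription factors was then 3 of 29. The lists are short, so that each gene shifts a share by several percentage points, and longer genes offer a wider window.

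Within 50 kb of the span, all protein-coding genes gave 5.15%. The myeloid genes gave 8 of 36 (22.2%), the B cell receptor list 6 of 30 (20.0%) and the transcription factors 5 of 29 (17.2%). Housekeeping genes gave 2 of 20 (10.0%) and genes of TLR and NF-kB signalling 2 of 28 (7.14%). Erythroid and iron genes gave 1 of 19 (5.26%), neuron genes 1 of 20 (5.00%) and MHC class II presentation genes 0 of 14. With every PU.1_3 peak counted in place of the strongest ones, within 5 kb, the share was 15.1% of all protein-coding genes, 76.7% of the B cell receptor list, 72.4% of the transcription factors and 38.9% of the myeloid list.

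In the B cell receptor list, peaks lay inside Inpp5d, the gene of the inhibitory phosphatase SHIP1 (432), and inside Vav2, an exchange factor gene (677). The related Vav3 had one at 4.33 kb (413), Grb2, an adaptor gene, one at 3.35 kb (499), and Blnk, the adaptor that couples Syk to downstream enzymes, one at 3.21 kb (413), which is 2010 bp wide. Syk itself was the nearest gene of a peak at 9.36 kb (829, chromosome 13, 52572116 to 52573252). Pik3r1, a regulatory subunit gene of phosphoinositide 3-kinase, was nearest to a peak 353 kb away (698). Cd79a, Cd79b, Btk and Lyn had none within 5 kb.

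Among the transcription factors, Runx1 had a peak in its body (575) and another 205 kb upstream (588), and Tcf4, which encodes the E protein E2-2, one in its body (738) and one 98.2 kb beyond an end (869). Ikzf1, the gene of Ikaros, held a peak inside its body (409). Ebf1, which encodes an early B cell factor, was nearest to a peak 14.4 kb upstream (1061, chromosome 11, 44602602 to 44603706). Foxo1 had a pair 75.4 and 93.5 kb downstream (415 and 476), and Mef2c a peak 462 kb upstream (546). Spi1 had none of the strongest peaks within 5 kb, while a PU.1_2 peak of any score was counted for 29 of 29 genes of this list.

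In the myeloid list, Cd68 (417) and Ncf1, a subunit gene of the phagocyte NADPH oxidase (411, at 1.18 kb), had a peak within 5 kb. Nlrp3, an inflammasome gene, was nearest to a peak at 14.2 kb (602) and Tyrobp, an ITAM adaptor gene, to one at 18.7 kb (527). In the remaining lists the genes were Irak3, a negative regulator of TLR signalling, with a peak in its body (600), Tfrc, the transferrin receptor gene (536, at 0.625 kb), and the actin gene Actb (1555, at 0.688 kb). Each value here is a PU.1_3 score, each match in PU.1_2 scored 3100, and a position near a gene says nothing of its expression.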

How the data were processed

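Per the submitters' processing notes, the tools for both PU.1 ChIP-seq libraries were Trim Galore, Bowtie and MACS 1.4.1, and the build was mm10. Read depth and the use of the input were not stated in the labels, so precision is not known beyond counting error. The deposited lists hold 1 score per peak, given by the authors' caller. The combined list of 49385 intervals has a score of 0 throughout and was used for positions.

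PU.1_3 peaks of 400 or more were matched to PU.1_2 peaks sharing 1 bp or more, with the highest score kept. Protein-coding genes came from a RefSeq table of GRCm38.p6 with 21896 spans. Starts and strand came from RefSeq promoter windows for 17491 of them, and for 4405 either end was used. Locations were assigned by midpoint, first to starts (1 kb), then protein-coding spans, other genes and intergenic sequence. Where an interval follows a share, it is an exact Clopper-Pearson 95% interval. Other shares, among them those for promoter matches, gene lists and score bins, were given without one. All gene list entries were matched.

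No test across conditions was possible with 1 condition, and peaks were not resampled. The peaks, gene lists and rules were chosen with earlier results of these data known. Genes named are those of the 25 highest scores, the PU.1_2 exceptions, the 3 widest and narrowest peaks and all gene-start peaks. Also named are those of groups within 50 kb, and listed genes that were nearest to a peak or had one within 5 kb. Tenm2, X-linked genes and those at the threshold were chosen after their values were seen. So were Cd79a, Cd79b, Btk, Lyn and Spi1, named for having none of the strongest peaks within 5 kb. Python 3.11.15, pandas 2.3.3 and scipy 1.17.1 were used, and overlap code was checked on made-up intervals. Alternatives were score thresholds of 300 and 500, other matching rules, windows and gene sets, and either library alone.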

Additional observations from a re-analysis of the deposited data

How the results depend on the processing

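A threshold of 300 gave 1018 peaks and one of 500 gave 385. The share with a PU.1_2 score of exactly 3100 was 98.4% at 300 and 92.5% with reciprocal overlap of 50%, where an unmatched peak counts as missing. A 5 kb window around gene starts raised their share to 18.1% and lowered the shares inside protein-coding genes to 32.9% and in intergenic sequence to 40.1%, by construction. The median distance of 2.70 kb to a gene span became 18.4 kb to the nearer gene end, since peaks inside genes no longer count as 0. Leaving out replicate 2 changes no location, as the peaks come from replicate 3. Without replicate 3 the count could not be held at 614 because of ties, and all 2656 PU.1_2 peaks at 3100 or more were taken. Between both, the share at gene starts ran from 6.51% to 12.9%, inside protein-coding genes from 39.3% to 39.6%, inside other genes from 8.96% to 9.53% and intergenic from 45.0% to 38.3%, and the median distance from 2.70 to 0 kb. The cause was not tested. Gene starts taken as either end of every gene, chosen as an alternative after seeing the data, gave 7.17%. The median distance was 0.835 kb at a threshold of 300, and both this value and that without replicate 3 lie within the exact 95% interval of the median (0 to 4.33 kb). Gene list counts aside, 10 of the recomputed values moved and 35 did not. A value moved if it lay outside the 95% interval of the reported value or, for the number of peaks, differed by over 1.5 times. Of the gene list counts, 17 moved by that 1.5 times rule or away from a count of 0, and 23 did not. Both tallies include values that could not change, such as those without replicate 2. At 500, 1 gene of the B cell receptor list and 0 of the myeloid list had a peak within 5 kb, and at 300 the numbers were 7 and 3. No peak exceeded 3100 in PU.1_3. No paired analysis was possible because both PU.1 libraries belong to 1 condition and the input shares no replicate number with them. Read depth is not known, so peaks missed for depth cannot be told apart from absent ones.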
